A study of Mus musculus with 7 samples.

Results

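The gland base and Wnt target genes described here are 10 genes chosen by name, Lgr5, Rnf43, Znrf3, Axin2, Ascl2, Sox9, Tnfrsf19, Cd44, Lrig1 and Aqp5, out of 18907 genes in the count tables. A row was a member where its gene name, without the chromosome that the tables append, was 1 of these, and all 10 were found. They were measured in single cells of the gastric epithelium of C57BL/6 mice, called WT in the labels, with no treatment in any group. The groups were 3 plates labelled pylorus, the outlet of the stomach, and 4 plates labelled corpus, its main body. Glands were squeezed from the tissue and digested, and living (DAPI-negative) cells were sorted, 1 to a well, into 384-well plates for CEL-seq2, a method that counts transcripts by unique molecular identifiers (UMIs). A well counted as a cell from 1000 UMIs of endogenous genes upward, which gave 983 cells on pylorus and 1252 on corpus plates. No label ties a plate to an animal, so errors and p-values cover the spread between plates, which may be technical.

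Wnt ligands bind Frizzled and LRP receptors and stabilise beta-catenin, which then acts with TCF factors on target genes. R-spondins strengthen the signal through Lgr receptors by removing the ubiquitin ligases that clear Frizzled from the cell surface. In the mouse stomach, Lgr5 is known as a marker of stem cells at the base of pyloric glands and of a subset of chief cells at the base of corpus glands, and Aqp5 as a marker of pyloric gland base cells.

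The libraries did not all match their region labels. Gast, which encodes gastrin, a hormone made in the outlet region of the stomach, had 3340 UMIs in 138 wells of the library labelled corpus replicate 1 and 0 UMIs in the other 6 plates, those labelled pylorus included. Of these UMIs 5 wells held 94.0%, and 1 of them 2335 UMIs. Pdx1, a transcription factor of that region, had 6 UMIs in the library labelled corpus replicate 1, 3 and 1 in corpus replicates 3 and 4, and 0 in corpus replicate 2 and the plates labelled pylorus. Chief-like wells numbered 45, 58 and 63 in the libraries labelled pylorus replicates 1 to 3, and parietal-like wells 3, 12 and 20. Directions between regions below are therefore directions between labels. The median kept well held 8240, 20326 and 23400 UMIs in pylorus replicates 1 to 3, and 6898.5, 19648, 25381 and 25544.5 in corpus replicates 1 to 4. The share of spike-in UMIs was 6.55% in pylorus replicate 1 and 4.27% in corpus replicate 1, against 0.256% to 0.426% in the other plates. All plates use the same 384 well barcodes, and no 2 kept wells held identical counts.

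Most kept wells held at least 1 of the 10 genes. A member UMI was found in 2066 of 2235 kept wells, and at least 3 members in 825 of them. At least 1 Sox9 UMI was found in 1853 wells, against 827 wells for Lrig1, 625 for Znrf3, 504 for Cd44, 322 for Rnf43 and 244 for Aqp5. Lgr5 was found in 203 wells (9.08% of all kept wells), Tnfrsf19 in 166, Ascl2 in 140 and Axin2 in 120. Detection followed depth: once every well was thinned to 2000 UMIs, which left out 101 shallower wells, Lgr5 was found in 1.78% and Sox9 in 41.9%.

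Among the receptor and ubiquitin ligase genes, Lgr5, the R-spondin receptor, had 8.41, 4.36 and 8.41 counts per 1000000 UMIs of kept wells (CPM) in pylorus replicates 1 to 3, against 22.7, 15.6, 10.001 and 8.26 in corpus replicates 1 to 4. The lowest corpus plate lay below the highest pylorus plates on this scale, so the groups overlapped. Rnf43, a ligase that removes Frizzled, had 11.1, 6.42 and 7.75 CPM in pylorus plates, against 13.0, 14.6, 7.47 and 6.11 CPM in corpus plates. Znrf3, its close relative, had 24.1, 18.5 and 18.5 CPM in pylorus plates, against 15.6, 23.8, 20.4 and 14.9 CPM in corpus plates. For both ligases the plates of the groups interleaved.

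Among intracellular members, Axin2, a scaffold of beta-catenin breakdown that Wnt signals induce, had 3.44, 1.70 and 2.10 CPM in pylorus plates, against 5.57, 7.47, 2.84 and 1.70 CPM in corpus plates. Ascl2, a transcription factor of intestinal stem cells, had 3.44, 4.97 and 8.63 CPM in pylorus plates, against 6.68, 4.76, 2.53 and 4.41 CPM in corpus plates. Sox9, a transcription factor of gut progenitors, had 239, 367 and 404 CPM in pylorus plates, against 262, 273, 341 and 416 CPM in corpus plates. In each of these genes the groups overlapped. Sox9 was lowest in pylorus replicate 1, corpus replicate 1 and corpus replicate 2.

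Among surface proteins, Tnfrsf19 (also called Troy), a receptor of the TNF receptor family, had 6.50, 3.88 and 2.88 CPM in pylorus plates, against 3.34, 15.5, 7.90 and 4.30 CPM in corpus plates. Lrig1, a brake on ErbB receptors, had 26.8, 26.8 and 24.9 CPM in pylorus plates, against 65.7, 52.3, 39.1 and 29.9 CPM in corpus plates. Every corpus plate lay above every pylorus plate in Lrig1. On the scaled values of the region fit below, 162 of 11931 genes tested (1.36%) were lower in every pylorus plate, and 203 were higher. Cd44, the hyaluronan receptor, had 7.65, 18.5 and 30.4 CPM in pylorus plates, against 169, 7.98, 18.3 and 18.6 CPM in corpus plates. Aqp5, a water channel, had 9.94, 5.21 and 8.74 CPM in pylorus plates, against 121, 18.9, 6.42 and 12.8 CPM in corpus plates. In Cd44 and Aqp5 the library labelled corpus replicate 1 stood far above the other 6 plates, at 9.17 and 13.0 times their median, and the remaining plates overlapped.

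Few wells carried the rarer members. Lgr5 UMIs were in 7, 18 and 31 wells of pylorus replicates 1 to 3, against 29, 32, 44 and 42 wells of corpus replicates 1 to 4. In pylorus replicate 1 the 22 Lgr5 UMIs lay in 7 wells, 5 of which held 90.9% of them. Aqp5 was in 13, 25 and 35 wells of pylorus plates, against 49, 39, 37 and 46 wells of corpus plates. Cd44 was in 14, 84 and 105 wells of pylorus plates, against 105, 31, 85 and 80 wells of corpus plates. In wells thinned to 2000 UMIs the library labelled corpus replicate 1 held Aqp5 in 10.5%, against 1.12% to 3.50% in the other plates. Cd44 was held there in 20.5%, against 1.76% to 8.74%, and Lgr5 in 4.18%, against 0.44% to 2.42%.

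Promoter windows of 7 members, all but Lgr5, Sox9 and Znrf3, were read to show the sequence at their start sites, 9 windows of 300 bases in all. They were searched on both strands for CTTTGA, core letters that TCF factors bind. The motif was in 1 of the 9 windows and in 16.0% of 32851 windows of all genes. The window that held it is 1 of 2 of Tnfrsf19, at chr14:61037938-61038237 on the minus strand (RefSeq, GRCm38.p6), from 250 bases before to 50 after the start. It is printed with the reverse complement of the motif, TCAAAG, in capitals from its base 50, and the match is a description of these letters only.
Tnfrsf19: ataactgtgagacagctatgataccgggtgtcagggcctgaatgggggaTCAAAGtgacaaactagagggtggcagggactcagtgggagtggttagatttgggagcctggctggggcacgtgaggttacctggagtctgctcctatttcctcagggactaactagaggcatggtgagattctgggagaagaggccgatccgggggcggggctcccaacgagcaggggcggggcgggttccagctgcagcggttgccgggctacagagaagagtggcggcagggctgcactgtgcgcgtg

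**Figure D1:**
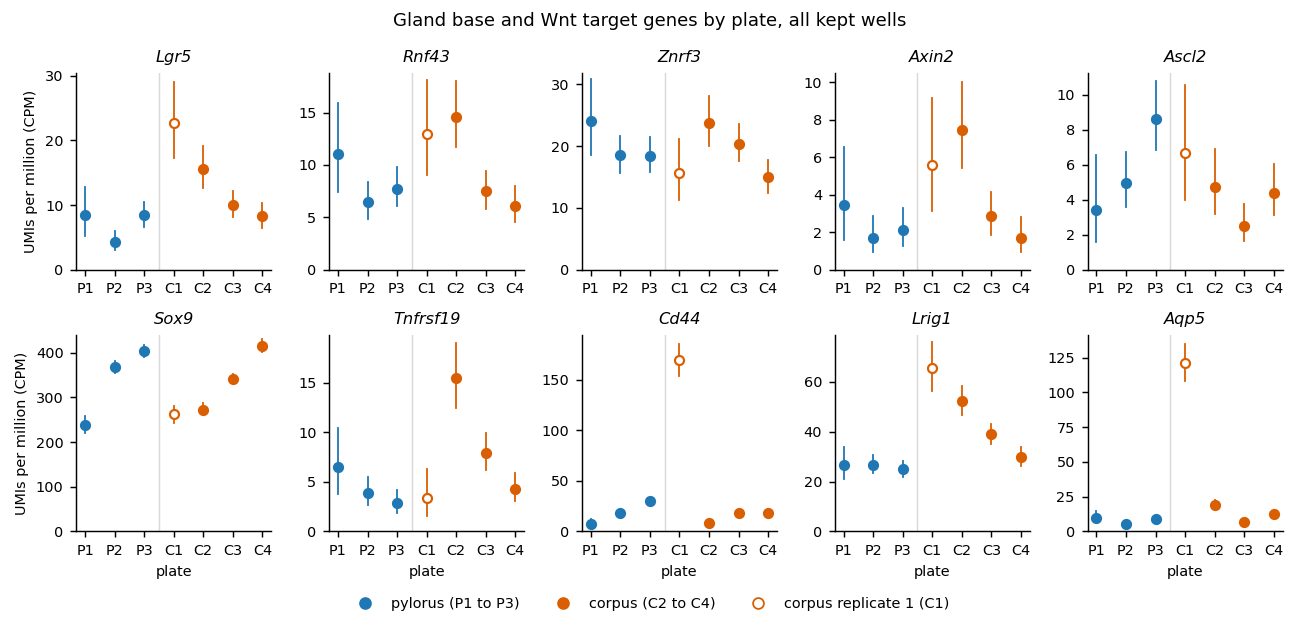
Level of each gene in CPM (linear axes from 0) by plate, over all kept wells, with pylorus plates P1 to P3 left of corpus plates C1 to C4. Bars are 95% Poisson intervals and cover counting error only. C1 (open circle) lies apart in Cd44 (169 CPM) and Aqp5 (121 CPM), and Lrig1 is lower in every pylorus plate than in every corpus plate. On the scaled values of the region fit, 1.36% of all genes tested were lower in this way.

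The regions were compared on counts summed per plate, fitted with limma across all genes on log2(CPM + 2) after scaling by trimmed means of M values (TMM). No member passed at a limma adjusted p under 0.05, in a fit that called 2 of 11931 genes (0.0168%). An unadjusted p under 0.05 was given to 146 of these genes, 2 of them members, Lrig1 and Lgr5. Lrig1 was 0.69 lower in pylorus on the log2(CPM + 2) scale (log2 change -0.69 ± 0.20 SE, unadjusted p = 0.00729, limma adjusted p = 0.99995). After TMM scaling Lrig1 averaged 26.7 ± 1.3 CPM in pylorus plates and 44.9 ± 9.2 CPM in corpus plates (SD, n = 3 and 4). The log2 change of Lgr5 was -0.74 ± 0.28 (SE, unadjusted p = 0.0299, limma adjusted p = 0.99995). Lgr5 then averaged 7.18 ± 2.30 CPM in pylorus and 13.4 ± 4.2 CPM in corpus plates. On the TMM scale these were the members whose plates did not overlap between regions, both lower in pylorus, as were 1.36% of all genes tested. In 203 of the 11931 genes every pylorus plate was higher. The other 8 log2 changes lay between -1.23 for Aqp5 and 0.25 for Ascl2, each with an adjusted p of 0.99995. Without the library labelled corpus replicate 1, the log2 changes were -0.58 for Lrig1, -0.57 for Lgr5, -0.51 for Aqp5 and 0.18 for Cd44, with no member called. With only pylorus replicates 2 and 3 and corpus replicates 3 and 4 fitted, 423 genes were called, again with no member among them.

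Marker levels of the cell classes differed between plates beside these values. The summed level of 7 chief markers ranged from 121793 to 167975 CPM in pylorus plates, against 46819 to 177484 CPM in corpus plates. The 7 parietal markers summed to 443 to 1744 CPM in pylorus and 697 to 4450 CPM in corpus plates. The 5 neck markers summed to 6234 to 7566 CPM in pylorus plates, against 26767 CPM in the library labelled corpus replicate 1 and 4115 to 6195 CPM in the other corpus plates. Of 12 immune markers, which summed to 167 to 1011 CPM in pylorus and 5.27 to 814 CPM in corpus plates, 0 to 1 were at 0 in pylorus plates and 0 to 6 in corpus plates. The 8 stromal and endothelial markers summed to 2.29 to 7.08 CPM in pylorus plates, against 41.2 CPM in the library labelled corpus replicate 1 and at most 3.05 CPM in the other corpus plates. Neck-like wells, as named below, were 24.5% of kept wells in the library labelled corpus replicate 1 and 27.6% in corpus replicate 2. The neck markers summed to 26767 and 4115 CPM there, so in these plates the sum did not follow the share of wells. Chief-like wells were 2.52% and 26.2%, beside chief marker sums of 46819 and 177484 CPM. The part of these classes in the plate totals was not tested. In such totals alone, fewer cells of a class and less RNA per cell cannot be told apart.

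Within cell classes the members were likewise not called. Wells were clustered without the 10 genes, and clusters were named from marker lists. In neck-like wells 8 members could be tested and 0 were called, in a fit that called 3 of 8083 genes (0.0371%). In chief-like wells 6 members were tested and 0 called, where 0 of 7006 genes were (0%). In pit-like and proliferating-like wells Sox9, Znrf3, Lrig1 and Cd44 could be tested. None of them was called, where 1 of 8286 pit-like genes (0.0121%) and 0 of 6924 proliferating-like genes (0%) were. By unadjusted p no member was under 0.05 in these fits, where 250, 177, 165 and 132 genes of the neck-like, chief-like, pit-like and proliferating-like fits were. The smallest was that of Cd44 in proliferating-like wells, with a log2 change of -1.05 ± 0.47 (SE, unadjusted p = 0.0501, limma adjusted p = 0.99999) and means of 20.8 ± 9.0 CPM in pylorus and 48.2 ± 28.1 CPM in corpus plates (SD, n = 3 each).

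The cell classes differed in which members they held. These levels are descriptions, given as the mean over plates with at least 10 wells of a class, and no test was made between classes. Neck-like wells (452, named by Muc6, A4gnt and related genes of mucous cells deep in the gland) came mainly from 1 cluster in pylorus replicate 1 and corpus replicates 1 and 2, and from another in the other plates. Chief-like wells (311, makers of digestive pre-enzymes) and pit-like wells (439, surface mucous cells) split the same way. A cluster of 261 wells led by Tff2, Slc1a3, Fam101b, Hells and Mcm4 was left unnamed.

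Lgr5 was highest in tuft-like and chief-like wells. In tuft-like wells, chemosensory cells named by Dclk1 and Trpm5, it averaged 63.6 CPM over the plates with 10 or more such wells, at 65.2 CPM in pylorus replicate 3 and 62.0 CPM in corpus replicate 4. Among all 50 tuft-like wells 24 held an Lgr5 UMI, and corpus replicate 2 reached 579 CPM on 15 UMIs in 3 of its 4 such wells. In chief-like wells Lgr5 averaged 22.8 ± 9.7 CPM (SD, n = 6), with 30.1, 8.11 and 26.0 CPM in pylorus replicates 1 to 3, against 35.0, 21.4 and 16.2 CPM in corpus replicates 2 to 4. In neck-like wells it averaged 21.0 ± 37.4 CPM (SD, n = 7), a mean carried by the library labelled corpus replicate 1 at 105 CPM. Without that library it was 6.87 ± 4.03 CPM (SD, n = 6), near the 6.30 ± 7.35 CPM of parietal-like wells (n = 4). Chief-like wells were 36.5% of the wells with Lgr5, neck-like wells 23.2%, parietal-like wells 14.3% and tuft-like wells 11.8%.

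The share of wells with Lgr5 also differed between classes. An Lgr5 UMI was found in 74 of 311 chief-like wells (23.8%, median depth 28243 UMIs), against 9 of 439 pit-like wells (2.05%, median depth 23437 UMIs). The pit-like share is given only as a value to compare with, and the source of these UMIs was not tested. It differed between the pit-like clusters, at 2 of 231 wells and 7 of 208 wells. Proliferating-like wells, named by Mki67, Top2a and other division genes, held Lgr5 in 4 of 162 (2.47%), close to the pit-like share. Parietal-like wells held it in 29 of 144 (20.1%). There the plates split, with 0 CPM in pylorus replicates 2 and 3, against 13.8 and 11.4 CPM in corpus replicates 3 and 4, the plates that held enough of these wells.

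Aqp5 was highest in neck-like wells. They held 84.8% of its UMIs, 302 of their 644 UMIs in the library labelled corpus replicate 1, and 64.3% of the wells with Aqp5. An Aqp5 UMI was found in 157 of 452 of them (34.7%, 95% Wilson interval 30.5 to 39.2%). The neck-like level was 45.3, 33.7 and 49.2 CPM in pylorus replicates 1 to 3, against 624, 67.7, 28.1 and 62.0 CPM in corpus replicates 1 to 4. The mean was 130 CPM with the library labelled corpus replicate 1 and 47.7 CPM without it. Every other class averaged at most 4.01 CPM. Immune-like wells held it in 0 of 134, which allows a share of up to 2.24% when 3 counts are taken as the limit of a count of 0, and up to 2.79% by the Wilson interval. Their median depth was 3757 UMIs, and the limit is one on wells with a UMI.

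Ascl2 was highest in tuft-like wells, at 106 CPM in pylorus replicate 3 and 103 CPM in corpus replicate 4. Tuft-like wells were 25.0% of the wells with Ascl2 and held 36.3% of its UMIs. An Ascl2 UMI was found in 35 of 50 tuft-like wells, in every plate but corpus replicate 1, where 0 of 3 tuft-like wells held one. The other classes averaged 1.01 to 7.95 CPM. Wells with both were seen in the chief-like class too: 1 chief-like well of pylorus replicate 3 held 17 Lgr5 and 15 Ascl2 UMIs beside 1050 UMIs of Gif, the chief cell gene for intrinsic factor in mice.

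Sox9 was found in every class and was highest in tuft-like wells (1107 CPM) and neck-like wells (786 ± 150 CPM, SD, n = 7). Sox9 in neck-like wells ran from 554 to 966 CPM, and no plate of the 7 fell as low as its highest chief-like level of 356 CPM. The unnamed cluster followed at 443 ± 28 CPM (n = 4). Immune-like and endocrine-like wells were lowest, at 104 and 113 CPM.

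Axin2 was highest in endocrine-like wells (13.5 ± 10.9 CPM, SD, n = 7) and neck-like wells (6.41 ± 3.61 CPM), which did not differ beyond their spread. The highest endocrine-like plate, the library labelled corpus replicate 1 at 35.2 CPM, held 2 UMIs in 1 of 23 wells. The other 6 plates had 0 to 15.4 CPM in endocrine-like wells, with a median of 10.8 CPM. Endocrine-like cells secrete hormones into the blood. Axin2 was found in 1 of 439 pit-like wells. Outside the library labelled corpus replicate 1 it was found in 0 of 106 proliferating-like wells, which allows a share of up to 2.83% by the same limit of 3 counts.

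Tnfrsf19 was highest in chief-like (14.8 ± 6.8 CPM, n = 6), neck-like (10.4 ± 8.6 CPM, n = 7) and parietal-like wells (7.93 ± 7.52 CPM, n = 4), whose spreads overlapped. Its highest neck-like plate was corpus replicate 2, at 29.5 CPM, and the library labelled corpus replicate 1 had 8.27 CPM. It was found in 2 of 439 pit-like and 2 of 162 proliferating-like wells. In tuft-like wells, where Lgr5 was highest, Tnfrsf19 averaged 1.72 CPM.

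The Frizzled ligases differed from each other in how they were spread. Rnf43 averaged 16.2 ± 9.6 CPM in neck-like, 12.7 ± 5.2 CPM in chief-like and 10.4 ± 9.3 CPM in proliferating-like wells, within each other's spread, and 0.336 CPM in endocrine-like wells. Znrf3 averaged 29.2 ± 4.5 CPM in neck-like wells and 24.4 ± 14.9 CPM in endocrine-like wells. Its lowest class was immune-like, at 9.42 CPM. Endocrine-like wells thus held Znrf3 in 62 of 282 wells and Rnf43 in 2 of 282.

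Lrig1 was highest in neck-like (81.9 ± 55.7 CPM, n = 7), parietal-like (74.4 ± 15.6 CPM, n = 4) and endocrine-like wells (64.5 ± 18.4 CPM, n = 7), which did not differ beyond their spread. The neck-like mean was carried by the library labelled corpus replicate 1 at 205 CPM, against 39.8 to 80.4 CPM in the other 6 plates. In those 6 plates the median was 60.5 CPM in neck-like and 69.2 CPM in endocrine-like wells, so the order of the classes depends on that library. Parietal-like wells, the acid-secreting cells, held it in 110 of 144. Chief-like wells averaged 13.5 ± 3.6 CPM and pit-like wells 9.47 ± 6.69 CPM.

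Cd44 was highest in immune-like wells (464 ± 35 CPM, SD, n = 4) and tuft-like wells (206 CPM). The immune-like cluster led by the mast cell genes Cpa3 and Mcpt1 held Cd44 in 90 of 115 wells, and the cluster led by Ccl5, Thy1 and other T cell genes in 10 of 19. Immune-like wells numbered 5, 32 and 40 in pylorus plates and 4, 0, 25 and 28 in corpus plates. The part of these wells in the Cd44 level of each plate was not tested. Proliferating-like wells averaged 35.8 ± 28.6 CPM and chief-like wells 3.26 ± 2.42 CPM.

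**Figure D2:**
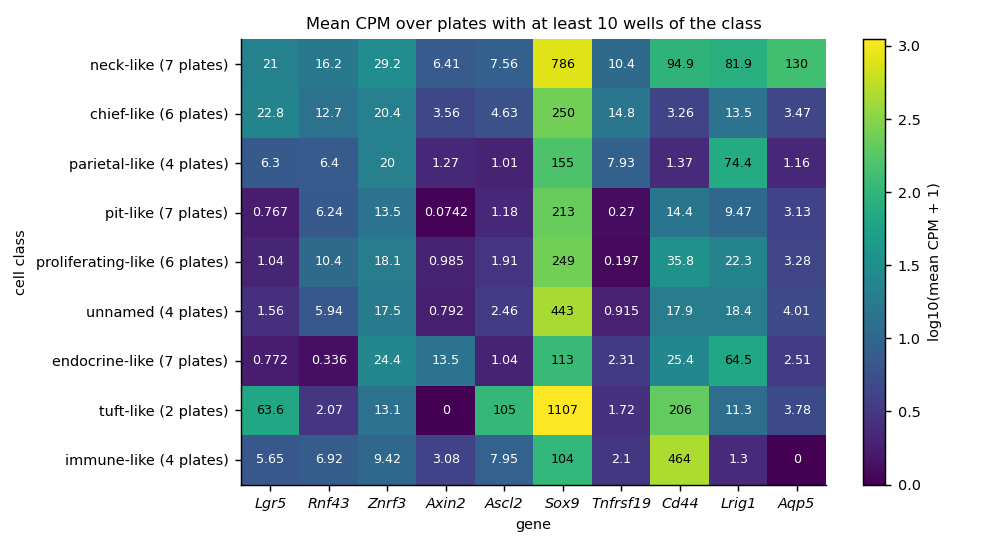
Mean CPM of each gene (columns) in each cell class (rows), over plates with at least 10 wells of the class. The number in a cell is the mean CPM and the colour its log10 after adding 1. Aqp5 stands out in neck-like wells (130 CPM, or 47.7 CPM without the library labelled corpus replicate 1), Ascl2 in tuft-like wells (105 CPM), and Cd44 in immune-like wells (464 CPM).

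The library labelled corpus replicate 1 stood apart inside the neck-like class. Its 68 neck-like wells held Lgr5 at 105 CPM (51 UMIs in 23 wells), against 2.06 to 13.0 CPM in the other 6 plates. Aqp5 was at 624 CPM there, against 28.1 to 67.7 CPM, and Cd44 at 598 CPM, against 5.62 to 15 CPM. Lrig1 was at 205 CPM, against 39.8 to 80.4 CPM, and Rnf43 at 33.1 CPM, against 6.14 to 23.4 CPM. Sox9 did not share this, at 693 CPM in that library, against 554 to 966 CPM in the others, nor did Znrf3, at 26.9 CPM, against 20.4 to 34.2 CPM. Axin2, at 10.3 CPM against 1.87 to 11.4 CPM, and Tnfrsf19, at 8.27 CPM against 5.62 to 29.5 CPM, also lay within the range of the others.

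The difference in detection remained at equal depth. In neck-like wells thinned to 2000 UMIs, Aqp5 was found in 23 of 59 wells of the library labelled corpus replicate 1, against 31 of 380 wells of the other plates. Lgr5 was found in 8 of 59, against 6 of 380, and Cd44 in 23 of 59, against 9 of 380. The same wells differed in the neck markers Gkn3, at 20449 CPM against 391 to 1918 CPM, and Tff2, at 44493 CPM against 2709 to 5442 CPM. These genes were higher in that library in other classes too. Gkn3 was at 619 CPM in its pit-like wells, against 4.36 to 33.5 CPM in the other plates, at 959 CPM in proliferating-like wells, against 11.4 to 89.4 CPM, and at 458 CPM in endocrine-like wells, against 1.65 to 80.1 CPM. Tff2 was at 17235 CPM in its pit-like wells, against 3869 to 14883 CPM, and at 2799 CPM in endocrine-like wells, against 208 to 631 CPM. Cd44 was at 63.2 CPM in its pit-like wells, against 2.61 to 8.02 CPM. The part of RNA free in the wells in these levels was not tested. Without that library the neck-like means were 6.87 ± 4.03 CPM for Lgr5, 47.7 ± 15.4 CPM for Aqp5 and 11.1 ± 3.6 CPM for Cd44 (SD, n = 6).

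Inside those 68 wells some of the members met in the same cells. Aqp5 was found in 19 of the 23 wells with Lgr5 and in 15 of the 45 without. Its level was 1064 CPM in the wells with Lgr5 and 304 CPM in those without. Cd44 was at 985 CPM with Lgr5 and 315 CPM without, and Lrig1 at 333 CPM with and 111 CPM without. The wells with Lgr5 were deeper, at a median of 7914 UMIs, against 4580 UMIs, and the part of depth in the well counts was not tested. Sox9 was 647 CPM with Lgr5 and 726 CPM without, and Rnf43 was 29.4 CPM with and 35.8 CPM without. Tnfrsf19 was found in 2 of the 23 wells with Lgr5 and 2 of the 45 without. Mki67, a gene of dividing cells, was found in 4 of the 23 wells with Lgr5 and 13 of the 45 without. The well with the most Lgr5 in that library held 13 of the 51 Lgr5 UMIs of the 68 wells. It also held 56 of their 302 Aqp5 and 48 of their 289 Cd44 UMIs. Beside these were 51 UMIs of Muc6, 1130 of Gkn3 and 0 of Mki67.

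Among the 384 neck-like wells of the other plates, 24 held Lgr5, and Aqp5 was found in 16 of these 24 wells, against 107 of 360 without Lgr5. Aqp5 was at 160 CPM in the wells with Lgr5 and 40.7 CPM in those without, and Cd44 at 31.3 CPM with and 9.67 CPM without. Both levels lay below those of the wells with Lgr5 in the library labelled corpus replicate 1. Gkn3 was at 5665 CPM in the wells with Lgr5 and 709 CPM in those without, at median depths of 20261 and 17807 UMIs.

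**Figure D3:**
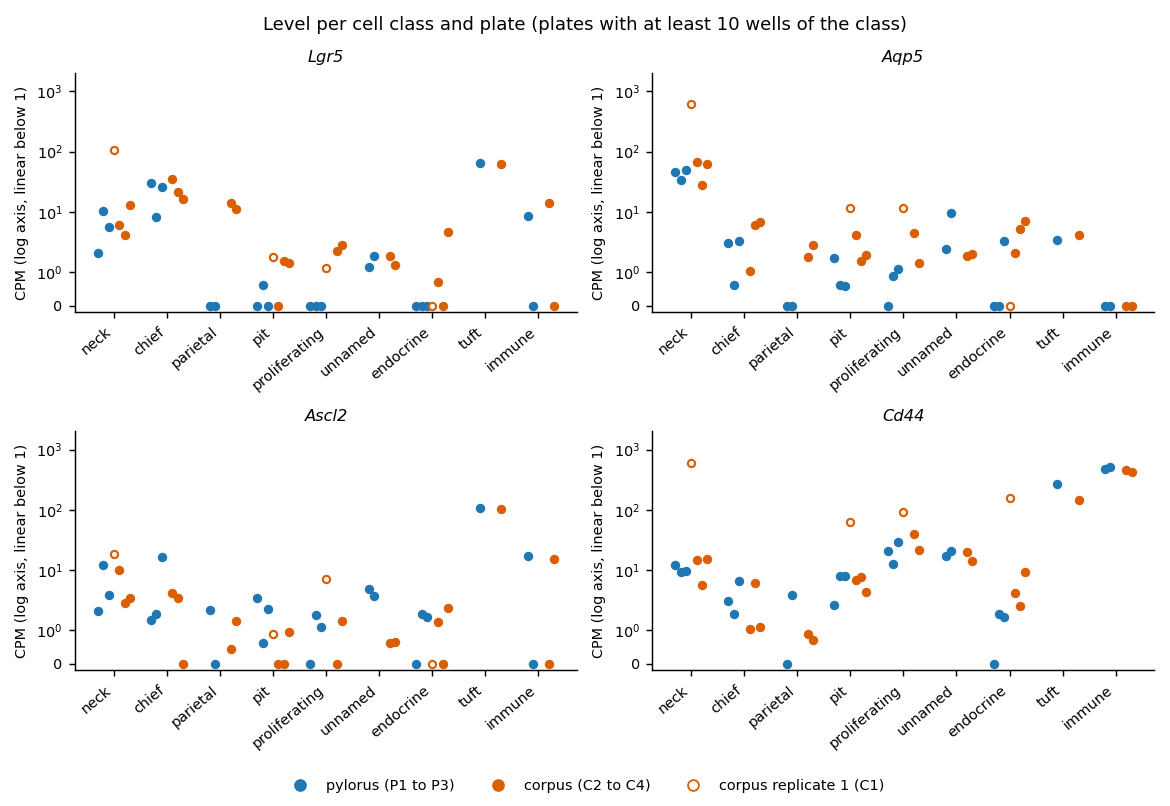
CPM of Lgr5, Aqp5, Ascl2 and Cd44 in each cell class (columns) and plate (points, pylorus left of corpus within a class), on a log axis that is linear below 1. Plates with fewer than 10 wells of a class are not drawn. The open circle, corpus replicate 1, lies above the other plates of the neck class in all 4 genes, most clearly in Aqp5 (624 CPM) and Cd44 (598 CPM).

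Co-expression with marker lists was measured within plates, as the mean log2 ratio of marker CPM (plus 10) in wells with at least 1 UMI of a member over the other kept wells. The 3 lists were 7 chief, 5 neck and 10 proliferation genes, none of them a member. Plates were the replicates, in an exact two-sided sign-flip permutation test. Of 30 pairs, 13 were called at an adjusted p of 0.0361 each, 10 higher and 3 lower, and 15 had an unadjusted p under 0.05. That adjusted p comes from the smallest p that 7 plates allow, 0.0156. It is reached only where all 7 plates share a sign, so the same sign in every plate is part of the call.

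Chief markers were higher in wells with Lgr5 (mean log2 ratio 1.06 ± 0.60, SD, n = 7), Tnfrsf19 (1.28 ± 0.69) and Axin2 (0.98 ± 0.70). The ratios for Lgr5 were 1.25, 0.87 and 1.001 in pylorus replicates 1 to 3 and 2.29, 0.81, 0.39 and 0.81 in corpus replicates 1 to 4. The library labelled corpus replicate 1 was the highest plate for all 3 genes, and without it the means were 0.86 for Lgr5, 1.04 for Tnfrsf19 and 0.73 for Axin2. In that library 23 of the 29 wells with Lgr5 were neck-like, and only 7 kept wells were chief-like. The chief markers are not particular to chief-like wells. Over all plates they summed to 304434 CPM in chief-like wells and 177699 CPM in neck-like wells, against 110445 CPM in the wells outside the neck-like class. No chief pair was called lower.

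Neck markers were higher in wells with Aqp5 (1.62 ± 0.19), Sox9 (1.52 ± 0.49), Lrig1 (0.62 ± 0.38), Axin2 (0.62 ± 0.44) and Znrf3 (0.20 ± 0.15). For Aqp5 the ratios were 1.56, 1.78 and 1.60 in pylorus plates and 1.90, 1.63, 1.30 and 1.55 in corpus plates. Lgr5 was not called with neck markers. Its ratio was 1.54 in the library labelled corpus replicate 1 and averaged -0.33 ± 1.04 in the other 6 plates.

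Proliferation markers were higher in wells with Cd44 (1.36 ± 0.68) and Sox9 (0.87 ± 0.43). They were lower in wells with Axin2 (-1.52 ± 0.24), Tnfrsf19 (-1.28 ± 0.59) and Aqp5 (-0.80 ± 0.51). For Lgr5 the ratio was -1.05 ± 1.01 (exact two-sided sign-flip permutation test, adjusted p = 0.0987), below 0 in 5 of 7 plates. At least 2 Mki67 UMIs were found in 16 of 203 wells with Lgr5 (7.88%), against 13.4% of the rest. The same was seen in 129 of 504 wells with Cd44 (25.6%), against 9.19% of the rest. For Sox9, found in 1853 wells, the rest was only 382 wells. Its lowest shares were in the immune-like clusters (36.5% and 42.1% of wells) and the endocrine-like clusters (57.8% and 55.3%). Neck markers summed to 957 CPM in immune-like and 551 CPM in endocrine-like wells, and proliferation markers to 1130 and 131 CPM. The part of these classes in the Sox9 ratios was not tested.

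Wells with a member were often deeper than the rest. The median depth of wells with Lgr5 ran from 8906 to 31222 UMIs over the plates, against 6646 to 25342.5 UMIs in wells without it. Wells with Sox9 held a median of 8553.5 to 26562 UMIs, against 3258 to 11833 UMIs without. With the rest matched to the depth of the member wells in 5 bins, 12 pairs were called, 11 of them among the 13 above and with the same sign. The pairs lost were Aqp5 with proliferation markers (-0.68, adjusted p = 0.0625) and Axin2 with neck markers (0.51, adjusted p = 0.104), by the same exact test. After thinning to 2000 UMIs, the ratios of Sox9 and Cd44 with proliferation markers were -0.25 and -0.49, the opposite sign. No pair was called after thinning, but only pairs of Sox9, Znrf3, Lrig1 and Cd44 then had enough wells to be tested. The called pairs of Lgr5, Aqp5, Axin2 and Tnfrsf19 were thus not tested at equal depth. Sox9 with neck markers kept a ratio of 0.95 (same exact test, adjusted p = 0.0625). No pair was called with at least 2 UMIs of the member, or with any 1 plate left out, where 6 plates allow no p below 0.0312.

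**Figure D4:**
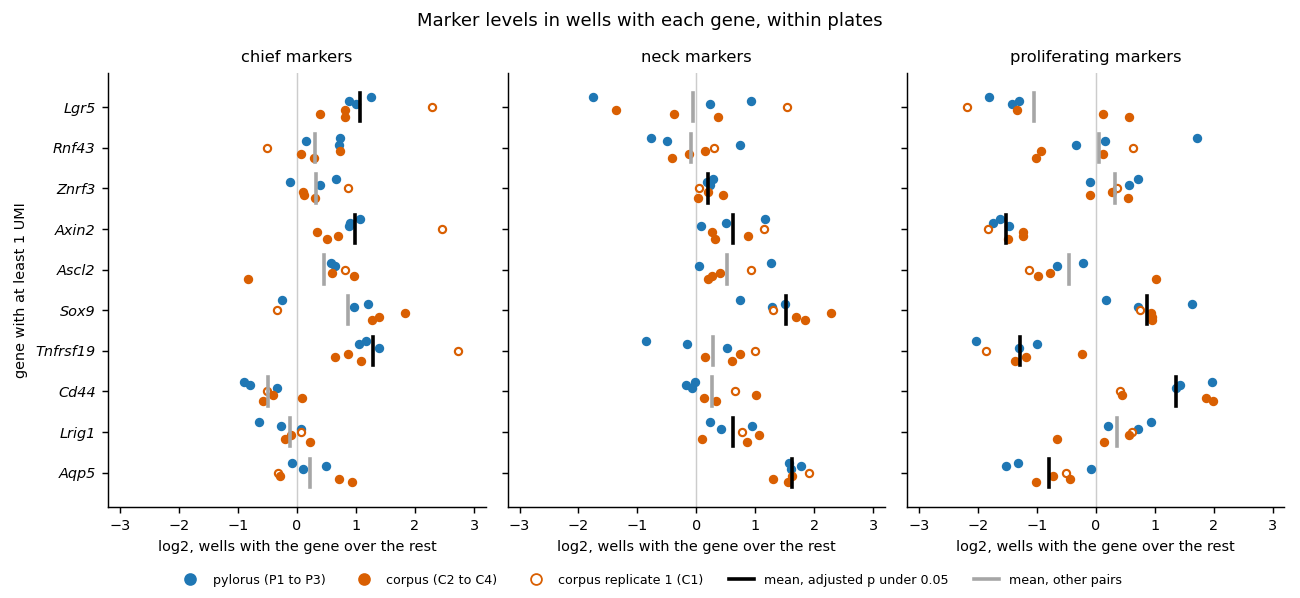
Mean log2 ratio of chief, neck and proliferation markers in wells with at least 1 UMI of each gene over the other wells of the plate (horizontal axis), for each gene (rows). Points are plates, upper to lower from pylorus to corpus, and vertical bars are means over plates, black where the adjusted p is under 0.05. Aqp5 and Sox9 lie above 0 with neck markers in every plate, and Axin2 and Tnfrsf19 below 0 with proliferation markers in every plate.

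The ratios were also compared between regions, over 30 pairs with an exact two-sided permutation test over plates. The smallest p that 3 against 4 plates allow is 0.0286, and 18 of the 30 pairs would have to reach it for any to pass. No pair had an unadjusted p under 0.05, and every adjusted p was 1. Cd44 with neck markers was the only pair whose plates had opposite signs throughout, with means of -0.087 in pylorus and 0.53 in corpus plates (unadjusted exact p = 0.0571).

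Members also met one another in single wells. Tnfrsf19 was found in 55 of 203 wells with Lgr5 (27.1%), against 5.46% of the wells without, and was higher in all 7 plates. Axin2 was found in 33 of them (16.3%), against 4.28%, also in all 7 plates. Ascl2 was found in 44 (21.7%), against 4.72%, and Aqp5 in 46 (22.7%), against 9.74%, each in 6 of 7 plates. These shares include the depth difference given above. After thinning to 2000 UMIs only 38 wells held Lgr5, and 4 plates had at least 5 of them. Tnfrsf19 was then found in 1 of the 38 wells (2.63%), against 0.716% of those without Lgr5, and was higher in 0 of these 4 plates. Axin2 was found in 3 (7.89%), against 0.716%, and was higher in 1 of 4. Ascl2 was found in 6 (15.8%), against 0.811%, higher in 2 of 4, and Aqp5 in 6, against 2.62%, higher in 3 of 4. In chief-like wells alone, pooled over plates, Tnfrsf19 was at 29.9 CPM in the 74 wells with Lgr5 and 9.1 CPM in the 237 without, and Rnf43 at 21.6 CPM with and 9.1 CPM without. Gif was at 11038 CPM with Lgr5 and 5934 CPM without. The chief-like class joins 2 clusters that differ in level and in plates. In the one led by Nrn1, Pdia2 and Chia, Tnfrsf19 was at 38.9 CPM in the 30 wells with Lgr5 and 13.1 CPM in the 68 without. In the one led by Furin, Nupr1 and Cryab it was at 23.5 CPM in the 44 wells with Lgr5 and 7.50 CPM in the 169 without. In both clusters the wells with Lgr5 were deeper, at medians of 33118 and 32786.5 UMIs, against 23599.5 and 27469 UMIs.

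Genes with the most similar pattern were sought over 47 sums of a class in a plate, among 5854 genes of at least 20 CPM on average. The measure was Pearson's r of log2(CPM + 10), given without a p because sums of 1 plate share a library and its depth. Aqp5 was most like Muc6 (r = 0.87), Gkn3 (0.86) and A4gnt (0.85), all of them neck markers here. Ascl2 was most like Ltc4s (0.86), Spib (0.84) and Pate4 (0.84), and Sox9 like Spdef (0.86), Gm684 (0.79) and Ehf (0.78). Lgr5 was most like Cdkn1c (0.75), Fxyd6 (0.67) and Reep5 (0.67). Tnfrsf19 was most like Copz2 (0.75), Gif (0.74) and Pdia2 (0.74). Rnf43 was most like Arhgef4 (0.70), Ppic (0.69) and Habp2 (0.69), and Znrf3 like Wipi1 (0.68), Casc4 (0.66) and Pik3c2a (0.65). Lrig1 was most like Gstm5 (0.84), Acsl1 (0.84) and Mut (0.81). Cd44 was most like Nfatc1 (0.84), Myo9b (0.81) and Rgs19 (0.78), and without the library labelled corpus replicate 1 like Inpp5d (0.93), Rac2 (0.92) and Ptprc (0.92), the last a gene of all white blood cells. Axin2, under 5 CPM over all wells, was left out.

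Other genes of the pathway were not called by limma in any of the 5 fits either. Over all kept wells, 5 of 13 Wnt ligand and R-spondin genes could be tested, with a median log2 change of 0.07, against 0.0012 for all genes. None of the listed genes had an unadjusted p under 0.05 in that fit. Rspo4 averaged 6.35 ± 1.82 CPM in pylorus and 10.3 ± 14.5 CPM in corpus plates (SD, n = 3 and 4), with a log2 change of 0.07 ± 0.72 (SE). Before TMM scaling corpus replicate 2 had 35.3 CPM of Rspo4, against 1.11 to 4.64 CPM in the other corpus plates. Wnt4 averaged 4.86 CPM in pylorus and 3.51 CPM in corpus plates. Of 16 receptor genes 12 were tested, with a median of 0.03, led by Lgr4, at 128.5 CPM in pylorus and 129 CPM in corpus plates, and Lrp6, at 94.2 and 95.7 CPM. Of 16 signal transducers 13 were tested (median 0.03), led by Ctnnb1, which encodes beta-catenin, at 375 CPM in pylorus and 338 CPM in corpus plates, and by Csnk1a1, a kinase of its breakdown complex, at 116 and 132 CPM.

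Of 11 inhibitor genes 4 were tested (median 0.30), with Sfrp5, a secreted Wnt binder, at 9.90 CPM in pylorus and 10.3 CPM in corpus plates, and Nkd1, a feedback inhibitor, at 2.28 and 3.73 CPM. Of 10 other Wnt targets 6 were tested (median -0.31), with Ccnd1, a cell cycle gene, at 68.6 CPM in pylorus and 85.9 CPM in corpus plates, and Ephb3, a guidance receptor, at 18.4 and 22.6 CPM. Of 12 other gland base and stem cell markers 11 were tested (median 0.18), with Clu at 2801 CPM in pylorus and 1993 CPM in corpus plates and Cd24a at 1833 and 1550 CPM.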

How the data were processed

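The files are untouched UMI counts by gene and well, as deposited: whole numbers up to 4095, with no normalization by the authors, per the file headers and values. Whether 4095 is an upper limit of the counting, which would lower the CPM of the most abundant genes in deep wells, was not tested. The genome build was mm9 according to the submitters' processing notes. Aligner and counting software: not given in the sources used here. Because the tables' format kept them from being read as plain count columns, they were recorded under the unit other. The planned count model was therefore replaced by the fallback written beside it, limma 3.58.1 under R 4.3.3, with the prior variance trended on mean log2(CPM + 2).

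Wells with at least 1000 UMIs were kept and summed per plate, or per class in plates with 10 or more of its wells. Clustering (scanpy 1.11.5, 2000 variable genes, 30 components, 15 neighbours, Leiden resolution 1.0) left out the 10 genes. Doublets were not called, as cells were sorted singly. TMM trimmed 30% of log ratios and 5% of abundances, and genes needed 10 counts at the median library size in enough plates and 15 in total. Calls used Benjamini-Hochberg adjustment over all genes, at 0.05. Scripts were tested on simulated data.

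The members and lists were chosen with earlier results of these data known. Named genes were the members, the 2 most abundant genes of each pathway list where none passed, and the 3 most similar genes. Alternatives are listed in the closing section. Kept wells held 2615624 to 9498860 UMIs per plate, and intervals cover counting error only.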

Additional observations from a re-analysis of the deposited data

Results flagged for a closer look

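In a test for a plate far from its 3 fellows, 31 sets of corpus plates were looked at and 9 were flagged. The cut is one that flags about 1 in 20 sets of independent normal values, and its rate in counts as low as these was not tested. The sets share plates and wells, so the number of flags is a description only. Of the 9 flags, 8 were the library labelled corpus replicate 1. Over all kept wells it was flagged for Aqp5 (121 CPM, next corpus plate 18.9 CPM) and Cd44 (169 CPM, next 18.6 CPM). In neck-like wells it was flagged for Lgr5 (105 CPM, next 13.0 CPM), Aqp5 (624 CPM, next 67.7 CPM), Lrig1 (205 CPM, next 80.4 CPM) and Cd44 (598 CPM, next 15 CPM). Cd44 was flagged there also in endocrine-like wells (158 CPM, next 9.42 CPM) and pit-like wells (63.2 CPM, next 7.80 CPM). The ninth flag was Rnf43 in pit-like wells of corpus replicate 2 (9.60 CPM, next 5.26 CPM).

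The ratio of neck markers in wells with Cd44 was below 0 in every pylorus plate and above 0 in every corpus plate, a difference of -0.62 between the region means on the log2 scale (exact two-sided permutation test, unadjusted p = 0.0571, adjusted p = 1 over 30 pairs).

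In the 453 wells under 1000 UMIs, which no comparison used, 97 member UMIs were counted.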

How the results depend on the processing

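In the 5 region fits no member was called under any alternative run: no filter on low counts, the replicate block, the 4 plates pylorus 2 and 3 and corpus 3 and 4 alone, leaving out each plate, total UMIs in place of TMM, a pseudocount of 0.5, and, over all wells, thinning and a minimum of 3000 UMIs. With the replicate block 0 members were called over all wells. The labels do not say whether plates of the same number belong together. The deviations of same-numbered plates from their group means had correlations of 0.45, -0.11 and 0.47. Pylorus replicates 1 and 3 correlated best with the corpus plate of their own number, and pylorus replicate 2 with corpus replicate 3 (0.37). With corpus replicate 4 the correlations of pylorus replicates 2 and 3 were nearly as high, at 0.35 and 0.46. Pylorus replicate 1 had -0.51 and -0.49 with corpus replicates 3 and 4. A batch shared by number was not tested. The number of genes called over all wells was 2, against 1 with the block and 0 to 2 under the others, except for 423 in those 4 plates. The 4 plates gave 48 genes, against 3, in neck-like, 43, against 0, in chief-like, 201, against 1, in pit-like and 13, against 0, in proliferating-like wells, and the other settings 0 to 7 genes. Of 383 member log2 values under these alternatives, 40 changed sign, none of them called. Over all wells Lgr5 ranged from -0.89 to -0.51 and Lrig1 from -0.83 to -0.49, while Cd44 ranged from -1.14 to 0.23. Of the 13 marker pairs, 0 were called after thinning to 2000 UMIs and 0 with at least 2 UMIs of the member, where fewer pairs could be tested. After thinning these were the pairs of Sox9, Znrf3, Lrig1 and Cd44 only. Without any 1 plate the count was 0 to 0, since 6 plates allow no p below 0.0312 and adjustment over the pairs then needs many at that bound. It was 11 with a pseudocount of 1 CPM, 12 with summed lists, 13 at 3000 UMIs and 12 with the rest matched in depth. Thinning turned Sox9 (-0.25) and Cd44 (-0.49) with proliferation markers, and summed lists turned Axin2 with neck markers (-0.45), and the cause was not tested. The depth matching, total UMIs and the 0.5 pseudocount were chosen after seeing the data. The planned DESeq2 alternative was not run, and limma was already the fit reported. At these depths most wells with a low member hold 1 UMI of it, so a missing UMI does not show that a cell lacks the gene.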
